A study of Mus musculus with 2 samples.

Results

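The 41 genes described here are imprinted genes of the mouse, which in at least some tissues are transcribed mainly or only from the copy inherited from 1 parent. They were taken by symbol from a table of 18159 gene symbols, and all 41 were found. By general knowledge of mouse imprinting, 24 are expressed from the paternal copy and 16 from the maternal copy, and *Gnas* makes several transcripts that differ in their parental copy. The data are mRNA-seq values in FPKM, fragments scaled to transcript length and to the number of mapped fragments, so levels are per length and can be set side by side between genes. RNA came from jejunal smooth muscle, the muscle wall of the middle small intestine, of mice aged 15 days. Both genotypes were on a C57BL/6 background and carried the *Myh11*-driven Cre-eGFP transgene, which is active in smooth muscle cells. The *Dnmt1*-KO mice were homozygous for a floxed *Dnmt1* allele that the Cre deletes. The *Dnmt1*-WT mice are described in the study as carrying the transgene with intact *Dnmt1*, while the strain field of both samples names the *Dnmt1* lox/lox line, and a description field shared by both names the knockout. The title and the genotype label were followed. Each genotype had 1 library, so no difference below has a replicate check, no p-value is given, and a gene is called at least doubled or at most halved from its ratio alone.

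Imprinted genes keep the memory of their parental origin in stretches of DNA, the imprint control regions, that are methylated on the copy from the mother or on the copy from the father. The mark is set in the germ line, and DNMT1, the enzyme that copies methylation to the new strand when DNA is replicated, carries it through the divisions of body cells. Some members are silenced on the copy that carries the mark, and others are expressed from that copy because the mark shuts off a neighbouring noncoding RNA or an insulator. Allele of origin was not measured in these libraries, so each value is the sum of both parental copies. Whether each member is imprinted in this muscle was therefore not seen, and the parental classes below come from general knowledge of other tissues as well.

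*Dnmt1* itself stood at 11.6 FPKM in *Dnmt1*-WT against 7.58 in *Dnmt1*-KO, a ratio of 0.655. Only part of the gene is floxed and only cells with Cre activity delete it, so a value for the whole gene in a whole muscle wall is a limited check of the label. The 10 smooth muscle markers were all lower in the *Dnmt1*-KO library, their summed level being 19616 FPKM in *Dnmt1*-WT against 13396 in *Dnmt1*-KO. Of these markers 4 were at most halved, among them *Mylk* (2832 and 1254 FPKM) and *Myh11* (2685 and 1256 FPKM). The high levels in both libraries matched the label of smooth muscle, which does not mean that the make-up of the tissue was the same. Markers of several other cell types were higher. Of 8 adipocyte markers 7 passed the filter described below and all 7 were at least doubled, with a summed level of 114 and 1232 FPKM, and *Lep* was listed at 0 in *Dnmt1*-WT. *Fabp4*, a fatty acid carrier, had 104 and 875 FPKM, and *Cfd*, the adipokine adipsin, 2.61 and 183. The 7 markers of leukocytes and macrophages in the table were all higher and 6 were at least doubled, their sum being 89.1 and 313 FPKM. All 6 endothelial markers were higher, 4 at least doubled, with sums of 44.6 and 97.3 FPKM, and of 7 fibroblast markers 5 were higher, 2 of them at least doubled, and 2 lower, with sums of 2890 and 4461 FPKM. Of 6 enterocyte markers 2 were at least doubled and 1 was at most halved (sums 276 and 563 FPKM), and of 6 enteric glia markers 2 were at least doubled (68.4 and 99.8 FPKM). None of the 10 enteric neuron markers (791 and 883 FPKM), the 5 of interstitial cells of Cajal (191 and 157 FPKM) or the 6 of mesothelium (370 and 473 FPKM) was doubled or halved. Of 6 skeletal muscle markers 4 passed the filter, 3 at least doubled and 1 at most halved, with a summed level of 106 and 64.1 FPKM. In these bulk values fewer cells of a type and less RNA per cell cannot be told apart. In muscle of the same age, flow cytometry by the study gave a larger share of immune cells and a smaller share of eGFP-positive smooth muscle cells in *Dnmt1*-KO. The study also reported less *Myh11* and *Srf* in sorted *Dnmt1*-KO smooth muscle cells. The part of the markers' cell types in the values of the imprinted genes was not tested.

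Most of the members that could be read had a higher level in *Dnmt1*-KO, by modest amounts, and a few were at least doubled. This holds for the members only. Of 21 further imprinted genes, read in the same way below, 9 were higher, 12 lower and none doubled. A gene passed the filter when the mean of both libraries was at least 1 FPKM, as 31 of the 41 members and 13450 genes of the table did. Of the 31, 22 were higher in *Dnmt1*-KO and 9 were lower, where 48.5% of all genes were higher. Of the 31, 6 were at least doubled, or 19.4%, beside 8.25% of all genes, 1 of them, *Snrpn*, being uncertain for the reason given with its values. None was at most halved, beside 3.49%. *Zim1*, *Slc22a18* and *Mkrn3* were below 1 FPKM in *Dnmt1*-WT and passed the filter only through their level in *Dnmt1*-KO. They had to be higher, so their part in the count of higher members was fixed by the filter. The filter favoured a ratio of 2 in them but did not require it, and *Mkrn3*, with a ratio of 1.18, was not doubled. With a ratio of 1.5 in place of 2, 11 members were higher by that much, beside 15.3% of all genes, and 1, *Ppp1r9a*, was lower by that much, beside 11.1%. The median log2 ratio of *Dnmt1*-KO to *Dnmt1*-WT, on FPKM + 0.1, was 0.37 for the members and -0.02 for all genes. The 6 doubled members were *Zim1*, *Snrpn*, *Dlk1*, *Slc38a4*, *Slc22a18* and *Cdkn1c*. Just inside the threshold stood *Cdkn1c* with a ratio of 2.16, and just outside it *Igf2* with 1.98 and *Mirg* with 1.90.

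**Figure D1:**
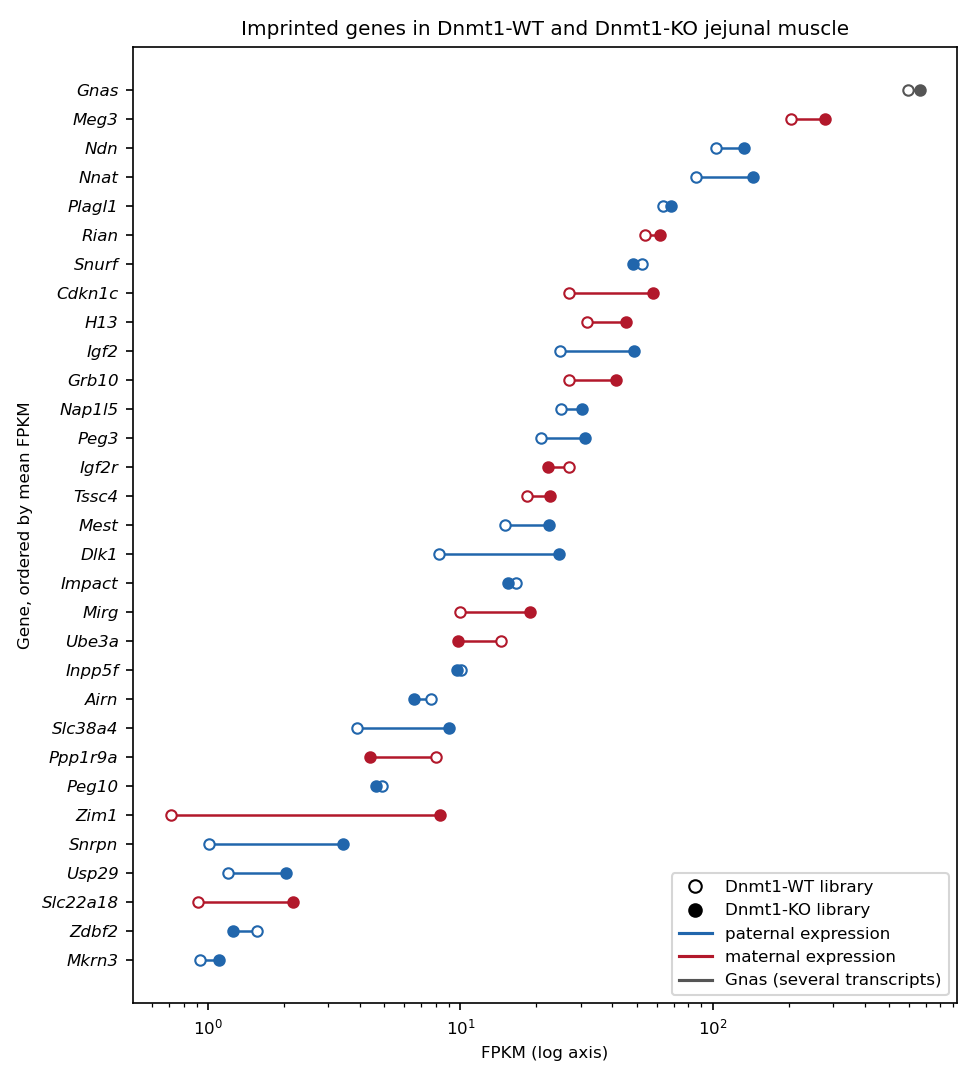
FPKM on a log axis of the 31 imprinted genes that passed the filter, ordered by mean level, with an open circle for the *Dnmt1*-WT library, a filled circle for the *Dnmt1*-KO library and a line whose colour gives the parental copy that is expressed. *Zim1* has the longest line, from 0.71 to 8.30 FPKM, while abundant *Gnas* and *Plagl1* hardly move.

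The sequences just before the start sites of members that were doubled are shown to let their CpG content be seen beside these values. Their methylation was not analysed here. They come from RefSeq on GRCm38.p6, the build of the files, and each gives the 250 bases before the start on the strand of the gene, with CpG sites, the bases that DNMT1 acts on, in capitals. The *Zim1* stretch, at chr7:6696433-6696682 on the minus strand, holds 14 CpG sites, the most of the set. *Dlk1* has 8 at chr12:109452573-109452822 on the plus strand. *Slc38a4* has 3 in the entry printed, at chr15:97055957-97056206 on the minus strand, and *Slc22a18* has none at chr7:143473539-143473788 on the plus strand. The *Snurf* entry, which is identical to 1 of the 4 entries of *Snrpn*, has 3 at chr7:60005200-60005449 on the minus strand. The last line is the stretch of 163 bases between the starts of *Peg3* and *Usp29*, at chr7:6730420-6730582 on the *Peg3* strand, shown because these paternally expressed genes are transcribed away from each other out of it, and it holds 5.
Zim1: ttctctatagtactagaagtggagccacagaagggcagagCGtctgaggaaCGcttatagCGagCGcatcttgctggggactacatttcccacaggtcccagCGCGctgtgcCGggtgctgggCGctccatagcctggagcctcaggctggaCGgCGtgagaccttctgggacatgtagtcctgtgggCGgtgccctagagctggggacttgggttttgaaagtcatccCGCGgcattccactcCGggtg
Dlk1: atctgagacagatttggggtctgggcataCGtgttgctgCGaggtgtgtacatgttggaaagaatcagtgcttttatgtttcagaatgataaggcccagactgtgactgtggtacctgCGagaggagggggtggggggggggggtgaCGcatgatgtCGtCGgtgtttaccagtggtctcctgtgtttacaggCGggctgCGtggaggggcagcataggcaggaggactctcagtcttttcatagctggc
Slc38a4: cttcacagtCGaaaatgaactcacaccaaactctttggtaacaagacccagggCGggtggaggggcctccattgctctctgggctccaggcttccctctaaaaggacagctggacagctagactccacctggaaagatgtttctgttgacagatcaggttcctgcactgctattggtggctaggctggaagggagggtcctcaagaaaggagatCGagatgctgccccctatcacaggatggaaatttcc
Slc22a18: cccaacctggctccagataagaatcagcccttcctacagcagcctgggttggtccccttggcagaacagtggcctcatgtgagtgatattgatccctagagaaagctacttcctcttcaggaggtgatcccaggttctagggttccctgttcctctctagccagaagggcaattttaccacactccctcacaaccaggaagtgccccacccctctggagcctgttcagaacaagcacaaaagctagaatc
Snurf and Snrpn: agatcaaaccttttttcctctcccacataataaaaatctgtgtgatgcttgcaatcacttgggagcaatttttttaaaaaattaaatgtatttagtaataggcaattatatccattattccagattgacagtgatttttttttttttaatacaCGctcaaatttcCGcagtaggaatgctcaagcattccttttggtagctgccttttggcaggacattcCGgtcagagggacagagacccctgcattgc
Peg3 and Usp29: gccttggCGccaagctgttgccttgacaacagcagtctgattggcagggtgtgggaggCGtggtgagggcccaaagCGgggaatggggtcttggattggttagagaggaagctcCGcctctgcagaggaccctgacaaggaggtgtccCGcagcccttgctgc

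Of the 24 paternally expressed members 18 passed the filter, 12 of them higher and 6 lower in *Dnmt1*-KO, with 3 at least doubled, the uncertain *Snrpn* among them, and a median log2 ratio of 0.32, where 48.5% of all genes were higher and 8.25% doubled. Of the 12, *Mkrn3* passed the filter only through its level in *Dnmt1*-KO and had to be higher. *Dlk1*, on chromosome 12 at chr12:109452823-109463336, encodes a membrane protein related to Notch ligands that is known from preadipocytes. It was 8.22 FPKM in *Dnmt1*-WT against 24.6 in *Dnmt1*-KO, a ratio of 2.99, and climbed from the 59.6th to the 83.5th percentile of all genes. *Igf2*, the fetal growth factor at chr7:142650766-142666816, was 24.7 FPKM in *Dnmt1*-WT against 48.9 in *Dnmt1*-KO, a ratio of 1.98. *Slc38a4*, a carrier of neutral amino acids at chr15:96994820-97055956, was 3.9 and 9.0 FPKM, a ratio of 2.31.

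In the *Peg3* locus of chromosome 7 both paternally expressed members were higher. *Peg3*, a zinc finger protein gene, was 20.9 FPKM in *Dnmt1*-WT against 31.1 in *Dnmt1*-KO, a ratio of 1.49. *Usp29*, which encodes a ubiquitin-specific protease, was 1.2 and 2.04 FPKM, a ratio of 1.70. Their levels thus kept about the same proportion, *Usp29* being 0.0573 of *Peg3* in *Dnmt1*-WT and 0.0655 in *Dnmt1*-KO.

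The *Snrpn* locus, a large domain of chromosome 7 known for its human counterpart in Prader-Willi and Angelman syndromes, was mixed. *Ndn*, a growth suppressor of the MAGE family, was the most abundant member of it, with 103 FPKM in *Dnmt1*-WT against 133 in *Dnmt1*-KO, a ratio of 1.29. *Snurf*, the upstream reading frame of the shared transcript, was 52.7 and 48.3 FPKM, a ratio of 0.918. *Snrpn*, the splicing protein SmN encoded further along the same transcript, was 1.01 and 3.44 FPKM, a ratio of 3.41. The annotated *Snurf* gene lies inside *Snrpn* on the same strand, so reads can be assigned to either, and the sum of both was 53.7 FPKM in *Dnmt1*-WT against 51.8 in *Dnmt1*-KO, a ratio of 0.964. The call of *Snrpn* as doubled is therefore uncertain, and with both genes summed as 1 the doubled members were 5 of 30, or 16.7%, and the paternally expressed ones 2 of 17. *Mkrn3*, a ring finger protein gene, was 0.93 and 1.10 FPKM, a ratio of 1.18.

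The remaining paternally expressed members lie alone or in small groups, and those above 10 FPKM were mostly higher. *Nnat*, a small membrane protein of the endoplasmic reticulum, was 86.0 FPKM in *Dnmt1*-WT against 145 in *Dnmt1*-KO, a ratio of 1.68. *Mest*, an enzyme of the hydrolase fold, was 15.0 and 22.4 FPKM, a ratio of 1.49. *Nap1l5*, related to nucleosome assembly proteins, was 24.9 and 30.4 FPKM, a ratio of 1.22. *Plagl1*, a zinc finger transcription factor that represses growth, barely moved. It was 63.4 FPKM in *Dnmt1*-WT against 68.3 in *Dnmt1*-KO, a ratio of 1.08. *Inpp5f*, a phosphoinositide phosphatase, was 10.1 and 9.66 FPKM, a ratio of 0.959. *Impact*, a regulator of translation under stress, was 16.6 and 15.4 FPKM, a ratio of 0.929. These 3 were close to 1 in their ratio. *Peg10*, a gene derived from a retrotransposon, was 4.91 and 4.61 FPKM, a ratio of 0.939. *Airn*, the noncoding RNA that runs through *Igf2r*, was 7.66 and 6.52 FPKM, a ratio of 0.851. *Zdbf2*, a zinc finger protein gene, was 1.56 and 1.25 FPKM, a ratio of 0.801, which is the lowest among the paternally expressed members that passed.

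Of the 16 maternally expressed members 12 passed the filter, 9 of them higher and 3 lower in *Dnmt1*-KO, with 3 at least doubled and a median log2 ratio of 0.48, set against the same 48.5% and 8.25% of all genes. Of the 3, *Zim1* and *Slc22a18* were below 1 FPKM in *Dnmt1*-WT and passed the filter only through their level in *Dnmt1*-KO, so they had to be higher. *Zim1*, a zinc finger gene at chr7:6671269-6696450 beside *Peg3*, had the largest ratio of any member. It was 0.71 FPKM in *Dnmt1*-WT against 8.30 in *Dnmt1*-KO, a ratio of 11.7, and moved from the 25.3rd to the 59.9th percentile of all genes. Its level relative to *Peg3* was 0.0339 in *Dnmt1*-WT and 0.267 in *Dnmt1*-KO.

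In the *Kcnq1* locus of chromosome 7, whose maternally expressed genes are silenced on the paternal copy by the noncoding RNA *Kcnq1ot1*, the 3 members that passed were all higher. Over all genes 48.5% were higher. Of the 3, *Slc22a18* passed the filter only through its level in *Dnmt1*-KO and had to be higher. *Cdkn1c*, an inhibitor of cyclin-dependent kinases at chr7:143458339-143461050, was 27.0 FPKM in *Dnmt1*-WT against 58.2 in *Dnmt1*-KO, a ratio of 2.16. *Slc22a18*, a transporter of the organic cation family at chr7:143473736-143499334, was 0.91 and 2.16 FPKM, a ratio of 2.37. *Tssc4* was 18.4 and 22.8 FPKM, a ratio of 1.24. *Cdkn1c* stood at 29.7 times the level of *Slc22a18* in *Dnmt1*-WT and 26.9 times in *Dnmt1*-KO, so that proportion hardly moved. Against *Tssc4* it did move, *Cdkn1c* being 1.47 times its level in *Dnmt1*-WT and 2.56 times in *Dnmt1*-KO.

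The maternally expressed noncoding RNAs of the *Dlk1-Dio3* locus were all higher as well. *Meg3*, the RNA at the head of this transcription unit, was the most abundant maternally expressed member, with 204 FPKM in *Dnmt1*-WT against 279 in *Dnmt1*-KO, a ratio of 1.37. *Rian*, which carries small nucleolar RNAs, was 53.9 and 61.9 FPKM, a ratio of 1.15. *Mirg*, which carries microRNAs, was 9.93 and 18.8 FPKM, a ratio of 1.90. The RNAs did not move in proportion, *Rian* being 5.43 times the level of *Mirg* in *Dnmt1*-WT and 3.29 times in *Dnmt1*-KO.

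Other maternally expressed members went both ways. *Grb10*, an adaptor that restrains insulin and IGF receptors, was 26.9 FPKM in *Dnmt1*-WT against 41.4 in *Dnmt1*-KO, a ratio of 1.54. *H13*, the signal peptide peptidase, was 31.9 and 45.3 FPKM, a ratio of 1.42. *Igf2r*, the receptor that takes up IGF2 for breakdown, was lower, with 27.0 and 22.3 FPKM and a ratio of 0.826. *Ube3a*, a ubiquitin ligase whose imprinting is known from neurons, was 14.5 and 9.77 FPKM, a ratio of 0.672. *Ppp1r9a*, an actin-binding partner of protein phosphatase, was the lowest of all members that passed, with 8.01 FPKM in *Dnmt1*-WT, 4.39 in *Dnmt1*-KO and a ratio of 0.548. *Gnas*, the stimulatory G protein alpha subunit, is counted in neither parental group and was the most abundant member. It was 594 FPKM in *Dnmt1*-WT against 661 in *Dnmt1*-KO, a ratio of 1.11.

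**Figure D2:**
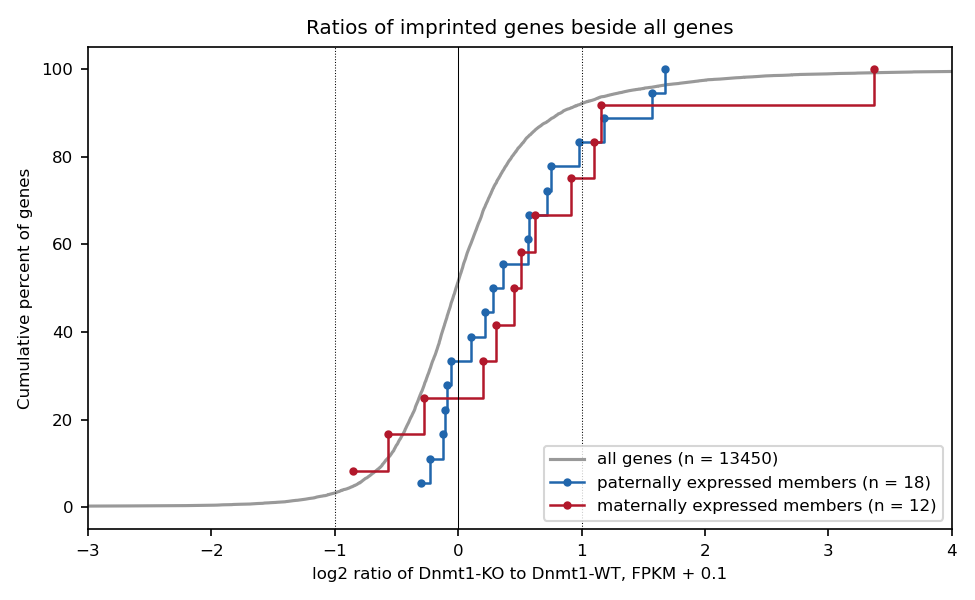
Cumulative percent of genes against the log2 ratio of *Dnmt1*-KO to *Dnmt1*-WT, for all 13450 genes that passed the filter (grey), the 18 paternally expressed members (blue) and the 12 maternally expressed members (red), with dotted lines at a ratio of 2 and 0.5. Both coloured curves run to the right of the grey curve over most of its middle, with medians of 0.32 and 0.48 against -0.02, and the maternal curve also holds the lowest member.

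The share of higher members was 12 of 18 for paternal and 9 of 12 for maternal expression. Whether these groups differ, in shares or medians, was not tested. Single members ran from -0.30 to 1.67 on the log2 scale for paternally and from -0.85 to 3.37 for maternally expressed members. Grouped instead by which copy carries methylation at the control region, members expressed from the methylated copy numbered 17, of which 11 passed, 8 were higher, 3 lower and 4 at least doubled (*Zim1*, *Dlk1*, *Slc22a18* and *Cdkn1c*), with a median of 0.62. Of these 4, *Zim1* and *Slc22a18* were below 1 FPKM in *Dnmt1*-WT and passed the filter only through their level in *Dnmt1*-KO, so that they had to differ. Members expressed from the unmethylated copy numbered 21, of which 17 passed, 12 were higher, 5 lower and 1, *Snrpn*, was at least doubled, with a median of 0.28. Of these 12, *Mkrn3* passed the filter only through its level in *Dnmt1*-KO and had to be higher. With *Snrpn* and *Snurf* summed none of 16 was doubled and the median was 0.25. Over all genes 48.5% were higher and 8.25% at least doubled, and the difference between the classes was not tested. *Gnas*, *Slc38a4* and *Zdbf2* were placed in neither group. Higher and lower members occurred in both groups, and the summed level of the 17 was 189 and 289 FPKM and that of the 21 was 677 and 882 FPKM. Where the mark lies on the paternal copy, at *Igf2-H19*, *Dlk1-Dio3* and *Rasgrf1*, all 5 members that passed were higher, with a median of 0.92. Of these, 4 lie at *Dlk1-Dio3* and the other is *Igf2*, while *Rasgrf1* did not pass, so the count rests mostly on 1 locus. Where the mark lies on the maternal copy, 16 of 24 were higher and 8 lower, with a median of 0.30.

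By locus, the members that passed were all higher at *Dlk1-Dio3* (4 of 4), *Peg3* (3 of 3) and *Kcnq1* (3 of 3), and all lower at *Igf2r* (2 of 2) and *Peg10* (2 of 2). At *Peg3* and *Dlk1-Dio3* this took in genes expressed from opposite parental copies. Over all genes 48.5% were higher, and the agreement within loci was not tested. *Zim1* at *Peg3* and *Slc22a18* at *Kcnq1* passed the filter only through their level in *Dnmt1*-KO, so they had to be higher. The summed level of the *Peg3* locus was 22.9 FPKM in *Dnmt1*-WT against 41.5 in *Dnmt1*-KO, and that of the *Dlk1-Dio3* locus was 276 and 385 FPKM. Within the latter *Dlk1* was 0.0403 of the level of *Meg3* in *Dnmt1*-WT and 0.0882 in *Dnmt1*-KO. At the *Igf2r* locus, *Igf2r* and *Airn* kept their proportion, 3.53 and 3.42, and they overlap on opposite strands, which the sources used here do not say were counted apart.

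Several members overlap another gene, so their values depend on how reads were assigned. *Nnat* lies within *Blcap* on the opposite strand, which had 20.1 and 18.6 FPKM, and *Mest* overlaps *Copg2* on the opposite strand, with 12.7 and 16.7. *Nap1l5* overlaps *Herc3*, with 5.29 and 6.81 FPKM, also on the opposite strand. *H13* shares its strand with *Mcts2*, which had 8.54 and 8.5 FPKM, and *Rian* with the microRNA gene *Mir1188*, which had 10.9 FPKM in *Dnmt1*-WT and was listed at 0 in *Dnmt1*-KO. These partners are named for the overlap alone. *Nnat* was higher while *Blcap* was not.

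The nearest genes outside the loci with doubled members, some of them far away (*Wdr25* at 424 kb and *Mrpl23* at 426 kb), were neither doubled nor halved. Genes in no imprinted list that lie inside those loci were passed over for this comparison, and 3 of them crossed a threshold. *Mir136* at *Dlk1-Dio3* had 1.09 and 2.63 FPKM, while *Mir1188* there (10.9 FPKM) and *Gm7367* at *Snrpn* (4.64 FPKM) were listed at 0 in *Dnmt1*-KO. For *Peg3* the nearest genes that passed the filter were *Zfp28*, with 1.88 FPKM in *Dnmt1*-WT against 1.77 in *Dnmt1*-KO, and *Zfp954*, with 3.08 and 2.79. For *Dlk1-Dio3* they were *Wdr25*, with 1.10 and 1.39 FPKM, and *Ppp2r5c*, with 45.4 and 40.8. For *Kcnq1* they were *Mrpl23*, with 150 and 141 FPKM, and *Cars*, with 8.17 and 11.4. *Slc38a4* lay between *Slc38a2*, another amino acid carrier of the same family, with 54.5 and 40.2 FPKM, and *Amigo2*, with 10.4 and 12.1. Beside the *Snrpn* locus *Chrna7* had 4.69 and 5.38 FPKM. Over all loci none of 37 nearest neighbours was doubled or halved, and their median log2 ratio was -0.08. Among all 129 genes within 500 kb that are in no imprinted list, of which 34 are such neighbours, 11 or 8.53% were at least doubled and 5 or 3.88% at most halved, close to the 8.25% and 3.49% of all genes. The 129 include *Mir136* and *Mir1188*, which overlap the members *Rtl1* and *Rian*. Being in no imprinted list therefore does not mean that a gene is not imprinted. In the *Peg3* domain *Zfp583* was at most halved, with a ratio of 0.481. Near *Igf2* the doubled genes included the fast skeletal muscle troponin genes *Tnni2*, with 2.58 and 9.50 FPKM, and *Tnnt3*, with 2.35 and 8.57, and these 3, like the 3 inside the loci, were picked out after their values were seen.

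**Figure D3:**
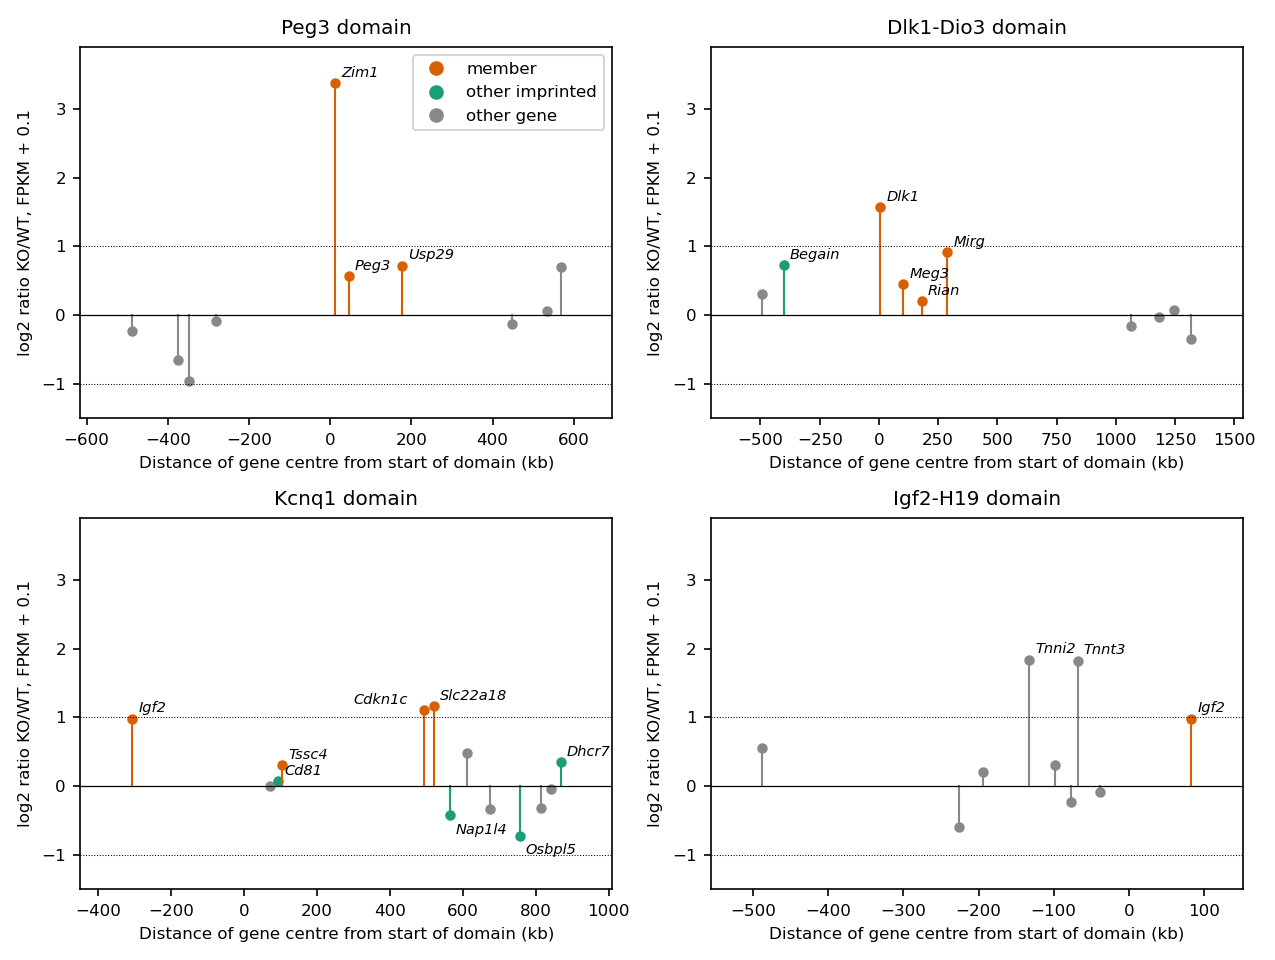
Log2 ratio of *Dnmt1*-KO to *Dnmt1*-WT of the genes that passed the filter in 4 domains, against the distance of the gene's centre from the start of the domain in kb, with members in orange, other imprinted genes in green and other genes in grey, without genes for microRNAs. *Zim1*, *Dlk1*, *Cdkn1c* and *Slc22a18* stand above the dotted line for a ratio of 2, while the grey neighbours stay between the lines apart from *Tnni2* and *Tnnt3* near *Igf2* (*Zfp583*, with a plain ratio of 0.481, lies just inside the lower line because of the added 0.1 FPKM).

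The level of a gene bears on how often a ratio passes 2. Of members with a mean from 1 to 10 FPKM 4 of 11 were at least doubled, where 837 of 6938 genes of that level were. From 10 to 50 FPKM it was 2 of 13 members, *Dlk1* and *Cdkn1c*, and 197 of 5116 genes. Above 50 FPKM none of 7 members was doubled, and 75 of 1396 genes were. *Zim1*, *Snrpn* and *Slc22a18* were at about 1 FPKM or less in *Dnmt1*-WT, and the table gives no read counts behind such values. With 1 added to each FPKM, *Slc22a18* had a ratio of 1.65 and was no longer doubled.

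The 10 members that did not pass the filter were low in both libraries. *Peg12* was just outside it with 0.92 FPKM in *Dnmt1*-WT against 1.03 in *Dnmt1*-KO. *H19*, the noncoding RNA that shares enhancers with *Igf2* and is abundant in fetal tissue, was 0.05 and 0.17 FPKM. *Asb4* was 0.31 and 0.50 FPKM, and *Rasgrf1*, an exchange factor for Ras, was 0.18 and 0.27. *Phlda2*, known for restraining placental growth, was 0.14 and 0.27 FPKM. *Ascl2*, a transcription factor of intestinal stem cells, was 0.19 and 0.03 FPKM. *Rtl1*, *Dio3* and *Magel2* were listed at 0 in *Dnmt1*-WT and at 0.17, 0.10 and 0.08 FPKM in *Dnmt1*-KO. *Kcnq1ot1* was listed at 0 in both. The lowest value above 0 in either library was 0.03 FPKM, so these differences can be read only as values near the bottom of the scale.

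The table also gives the number of transcript variants found for each gene. Of the 37 members above 0 in both libraries, 8 had more variants in *Dnmt1*-KO, 2 had fewer and 27 the same number. Over all genes 12.5% had more and 13.6% fewer, and 21.6% of the members had more. *Snrpn* went from 2 variants to 4 and *Ppp1r9a* from 5 to 7, the first with a higher and the second with a lower level. *Cdkn1c* went from 5 to 6 and *Dlk1* from 4 to 5. *Meg3* had fewer, 10 in *Dnmt1*-WT and 8 in *Dnmt1*-KO, and *Peg10* went from 4 to 3.

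CpG sites before the start were counted for the 36 members with an entry in the RefSeq table, the entry with the most sites standing for a gene. For some members, such as *Mirg* and *Ndn*, the RefSeq start lies kilobases from the GENCODE start, so the window is the one before the RefSeq start. The median was 11.5, within a range of 0 to 40, beside 14 for 13303 genes of the table. The 5 doubled members with an entry had between 0 and 14 sites, with a median of 5, and the 23 other members that passed had a median of 14. *Grb10* had the most, 40, with a ratio of 1.54, and *Ppp1r9a*, the lowest in ratio of the members that passed, had 35. *Rian*, like *Slc22a18*, had none. The letters TGCCGC, read on either strand and known as those that the imprint protein ZFP57 binds when methylated, were searched in every entry of a gene and found for 6 of 36 members, or 16.7%, beside 14.4% of the genes of the table counted in the same way. Counted per single entry and over a wider set of genes, so not on the same footing, it was 8.68% of all 32851 promoters of that length. The members were *Zdbf2*, *Mest*, *Nap1l5*, *Zim1*, *Plagl1* and *Meg3*, and in *Zim1*, whose sequence is printed above, the match begins 20 bases before the start. A match is a description of the letters only.

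**Figure D4:**
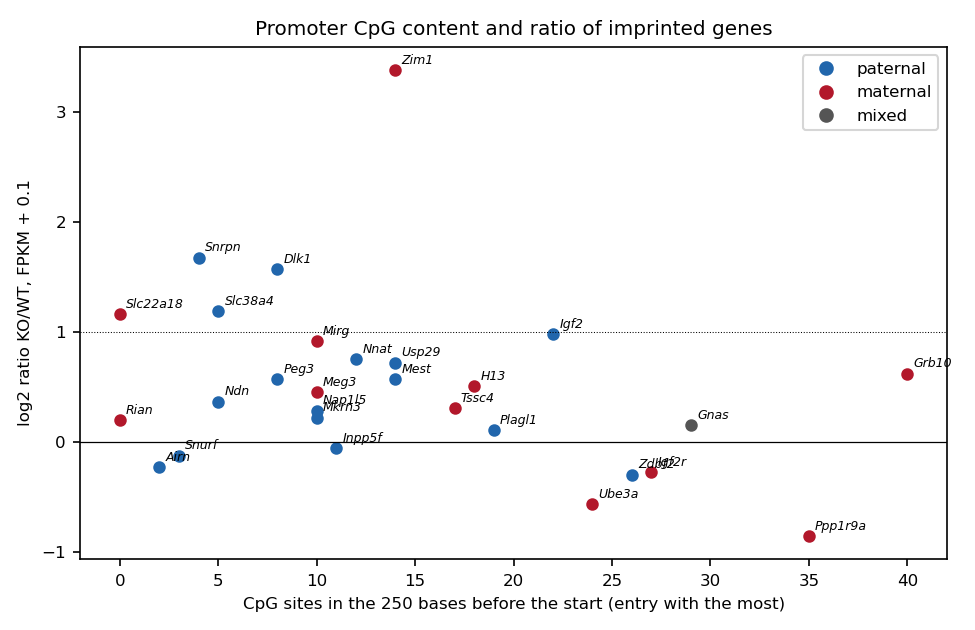
Log2 ratio of *Dnmt1*-KO to *Dnmt1*-WT against the number of CpG sites in the 250 bases before the start, for the members that passed the filter and have an entry, coloured by parental copy, with a dotted line at a ratio of 2. *Zim1*, with 14 sites, has the most sites of the doubled members, and *Igf2*, with 22 sites, lies just under the line.

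Of the 41, 31 passed with a median of 0.37, as given above. For comparison, a list of further mouse imprinted genes was read in the same way, without a test of the difference. Of 36 listed 34 were in the table and 21 passed the filter, of which 9 were higher, 12 lower, and none doubled or halved, with a median log2 ratio of -0.04. Over all genes 48.5% were higher, 8.25% at least doubled and 3.49% at most halved.

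In the IGF pathway, into which *Igf2*, *Igf2r* and *Grb10* feed, the ligand and its clearing receptor went opposite ways. The level of *Igf2* was 0.916 of that of *Igf2r* in *Dnmt1*-WT and 2.19 of it in *Dnmt1*-KO. Of 13 other pathway genes that passed the filter 9 were higher and 4 lower, where 48.5% of all genes were higher, and 2 were at least doubled, beside 8.25%, and none at most halved, beside 3.49%. *Igf1*, the postnatal growth factor, was 7.84 FPKM in *Dnmt1*-WT against 21.7 in *Dnmt1*-KO, a ratio of 2.76. *Igfbp2*, a binding protein for both ligands, was 21.3 and 225 FPKM, a ratio of 10.6.

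A list of factors tied to the upkeep of imprints was also read, the deleted *Dnmt1* and the 3 *Tet* genes included. Not all of its genes act on DNA methylation themselves. Of the 13 that passed the filter 3 were higher and 10 lower, where 48.5% of all genes were higher. One gene, *Tet1*, an enzyme that oxidises methylated cytosine, was at most halved, with 4.0 FPKM in *Dnmt1*-WT against 1.71 in *Dnmt1*-KO. None was doubled, and over all genes 3.49% were halved and 8.25% doubled.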

How the data were processed

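The deposited table gives, for 18159 gene symbols, FPKM of each library, numbers of transcript variants found in each library (a count of variants made by the authors, not of reads) and a ratio of the authors, which was not used. The submitters' processing notes name TopHat 1.4.1, Cufflinks 2.0.2 and mm10 (GRCm38). Libraries were made with TruSeq RNA after mirVana isolation. Whether counting used strand, and how the RNA of male and female mice was combined, is not given in the sources used here. The study gives mapped reads per library, but the table holds no read counts per gene, so no interval was computed.

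From the FPKM deposited by the authors the plain ratio of *Dnmt1*-KO to *Dnmt1*-WT was taken, and medians used log2 of FPKM + 0.1. The members, their parental classes, which come from general knowledge of mouse imprinting, and the 14 other lists were chosen with earlier results of these data known. All members were named. Of the other lists *Dnmt1* was named, with up to 4 genes per list that passed the filter and were doubled or halved (*Lep*, which did not pass, is named as the adipocyte marker at 0), and of the neighbours those of loci with doubled members. An item withheld from the text is not reported here. Positions are from GENCODE M21 and sequences from RefSeq, whose start sites differ by bases to kilobases. The *Impact* promoter was not used here. *Cdkn1c* had no promoter entry. Counting past a fold was tested on simulated data. The alternatives were other scalings, pseudocounts, filters, a fold of 1.5 and, added after seeing the data, *Snrpn* and *Snurf* summed. Python 3.11.15, numpy 2.4.6, pandas 2.3.3 and matplotlib 3.10.9 were used.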

Additional observations from a re-analysis of the deposited data

How the results depend on the processing

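With 1 library per genotype no result has a replicate check, and none could be left out. No paired analysis was possible because each genotype has 1 library and no test was made. The count of 6 doubled members was 5 to 7 under the other scalings and pseudocounts. Summing *Snrpn* and *Snurf* as 1 gene, chosen after seeing the data, gave 5. It became 10 without the filter, when members near 0 entered, 3 with a mean of at least 5 FPKM, when 24 members were left, and 11 at a fold of 1.5. The count of 0 halved members became 1 without the filter (*Ascl2*) and 1 at a fold of 1.5 (*Ppp1r9a*). The 4 medians kept their sign, within 0.22 to 0.40 for paternally and 0.38 to 0.54 for maternally expressed members, and within 0.18 to 0.35 for members expressed from the copy without and 0.51 to 0.68 for those expressed from the copy with the imprint. Scaling to an equal FPKM sum shifted every log2 ratio by -0.10. The ratio of *Inpp5f* crossed 1, to 1.003, under upper quartile scaling, and no other member that passed changed direction. With a pseudocount of 1 the ratio of *Zim1* was 5.44 and that of *Snrpn* 2.21, and that of *Slc22a18* fell from 2.37 to 1.65, which ended its call as doubled. Without read counts per gene, the counting error of members near 1 FPKM was not estimated.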
